A study of Mus musculus with 8 samples.

Results

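The genes described here are 10 imprinted genes of fetal growth, H19, Igf2, Igf2r, Dlk1, Meg3, Peg3, Peg10, Mest, Cdkn1c and Grb10. They were taken by name: every non-control probe of the array whose listed gene name is one of these symbols was used, which gave 23 of the 55681 distinct probes (41 spots) and 10 of the 36095 gene names on the array. All 23 probes passed the filter on dim signals, and 21 of them were well above background on all 8 arrays. The exceptions were the Peg10 probes, one detected on 7 arrays and the other on 4.

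Imprinted genes are expressed mainly from the chromosome inherited from one parent, under the control of methylation marks that are set in the germ line and differ between the parental copies. Many of them act on growth before birth. Genes expressed from the paternal copy, such as Igf2, Dlk1, Peg3, Peg10 and Mest, tend to promote growth or the supply of nutrients, while genes expressed from the maternal copy, such as Igf2r, Cdkn1c, Grb10 and H19, tend to restrain it. They lie in clusters that share control elements, among them H19 with Igf2 and Dlk1 with Meg3. In fetal organs Igf2 and H19 are known to be abundant in mesenchyme.

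RNA came from whole small intestines taken at stage E18.5. The 4 mutants carried 2 floxed alleles of Rfx6, a transcription factor of endocrine cells, and Ngn3-cre, a Cre recombinase driven by Ngn3, the gene of endocrine progenitors (Rfx6 fl/fl Ngn3-cre). The 4 controls were 3 Rfx6 fl/+ embryos (replicates 1, 3 and 4) and 1 Rfx6 fl/fl embryo (replicate 2). Cre was named for the mutants only, so Cre and loss of Rfx6 cannot be told apart. Each embryo gave 1 array, and the labels state nothing on litters. Endocrine cells are a small minority of the organ, so the RNA of imprinted genes measured here came from all cell types together, and more cells of a type cannot be told apart from more RNA per cell.

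The 75th percentile of signal lay between 788 and 1027 intensity units, and between 59.7% and 69.9% of probes were well above background. Mutant replicate 1 stood apart, with a mean correlation to the other arrays of 0.978 against 0.990 to 0.991 for the rest. The Rfx6 probe, at chr10:51450116-51450175, read -3.32, -3.20, -3.48 and -2.93 in the controls and -5.52, -3.37, -3.02 and -3.02 in the mutants, which overlap. Which exons were floxed is not given in the labels, so that probe does not check them. Of 8 endocrine markers 6 were called lower in the mutants, against 0.0423% of all tested probes called in either direction. The summed level of all 8 was 15.1 to 19.9 in the mutants and 56.6 to 67.7 in the controls. Neurog3, another of the 8, read higher in the mutants with groups not overlapping (0.76, SE 0.10, adjusted p = 0.0861). Levels are log2 processed intensity minus the log2 75th percentile of each array, a difference is mutant minus control, and a probe is called when its adjusted p from limma, with Benjamini-Hochberg adjustment over all 35472 tested probes, is under 0.05.

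The results turn on noncoding RNAs read by several probes, and the 7 probes of H19 and the Meg3 probes p2 and p3 are shown with their places on mm9. They are 60 bases long, given 5′ to 3′ in lower case as the array files list them, and numbered in order of genome position. H19 lies on the reverse strand of chromosome 7, so p7 is nearest to the 5′ end of the transcript and p1 nearest to the 3′ end. Meg3 lies on the forward strand of chromosome 12.
H19 p7, chr7:149762417-149762476: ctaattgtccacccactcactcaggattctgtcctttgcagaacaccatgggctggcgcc
H19 p6, chr7:149762173-149762232: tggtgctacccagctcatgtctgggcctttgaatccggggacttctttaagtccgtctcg
H19 p5, chr7:149762113-149762172: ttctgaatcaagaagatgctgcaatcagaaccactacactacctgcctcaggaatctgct
H19 p4, chr7:149761957-149762016: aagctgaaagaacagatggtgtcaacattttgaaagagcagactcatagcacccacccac
H19 p3, chr7:149761756-149761815: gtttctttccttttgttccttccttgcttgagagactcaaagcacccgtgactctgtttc
H19 p2, chr7:149761693-149761752: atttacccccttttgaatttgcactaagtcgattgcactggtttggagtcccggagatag
H19 p1, chr7:149761492-149761551: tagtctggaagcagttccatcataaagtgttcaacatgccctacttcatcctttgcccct
Meg3 p2, chr12:110799558-110799617: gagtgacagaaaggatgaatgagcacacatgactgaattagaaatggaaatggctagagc
Meg3 p3, chr12:110809678-110809737: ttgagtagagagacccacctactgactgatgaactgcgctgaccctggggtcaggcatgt

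Every H19 probe and the Igf2 probe read higher in all 4 mutants than in any control, with differences of 0.47 to 0.88 on the log2 scale (1.38 to 1.84 fold), while the other 8 genes overlapped between the groups. None of the 23 probes was called after adjustment, against 0.0423% of all tested probes in either direction and 0.00282% called higher. Without adjustment 8 of the 23 had a limma p under 0.05, against 5.05% of all tested probes. The groups did not overlap, with the mutants higher, at 8 of the 23 probes, against 2.81% of all tested probes, and with the mutants lower at 0 of the 23, against 1.56%. Those 8 probes belong to 2 of the 10 genes, and the 7 of H19 lie in 1 gene, so they are not separate findings. The median difference was 0.15 over the 23 probes and 0.02 over all tested probes.

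**Figure D1:**
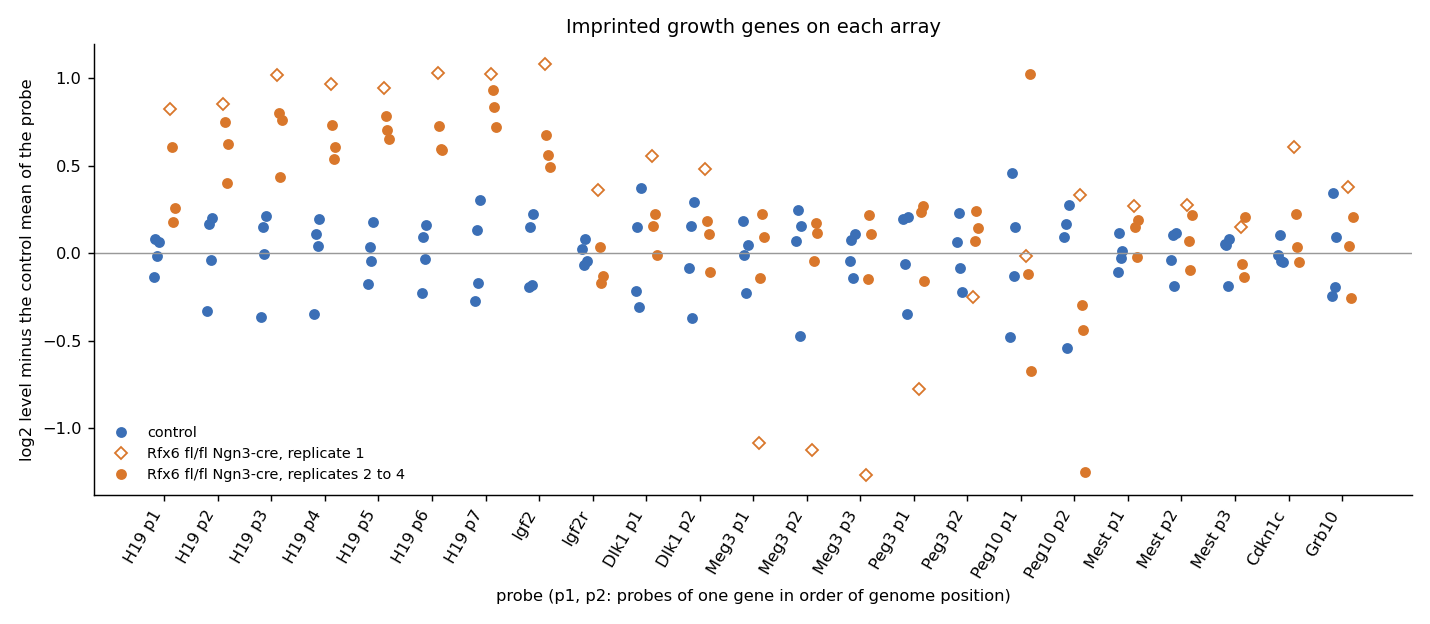
Level of each probe on each array, as log2 level minus the control mean of that probe (vertical axis), for the 23 probes in order of gene (horizontal axis; p1, p2 and so on are in order of genome position). Blue points are the 4 controls, filled orange points mutant replicates 2 to 4 and open diamonds mutant replicate 1, which is highest at all 8 H19 and Igf2 probes and lowest at the 3 Meg3 probes.

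H19 is a long noncoding RNA expressed from the maternal copy, abundant in fetal tissues of mesodermal and endodermal origin, and host of a microRNA. The array files place its interval at chr7:149761435-149764019. Probe p5 read 5.97, 6.18, 6.10 and 6.32 in controls 1 to 4 and 7.09, 6.92, 6.84 and 6.79 in mutants 1 to 4. The lowest mutant lay well above the highest control, and the spread within each group was small, with control 6.14 ± 0.15 and mutant 6.91 ± 0.13 (SD, n = 4). The difference was 0.77 (SE 0.11, adjusted p = 0.115), the 27th smallest p among all tested probes.

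At p7, nearest to the 5′ end, the controls read -3.49, -3.09, -3.40 and -2.92 and the mutants -2.20, -2.29, -2.39 and -2.50. The difference there was 0.88 (SE 0.15, adjusted p = 0.196). Probe p6 read 6.18, 6.50, 6.38 and 6.58 in the controls and 7.44, 7.14, 7.01 and 7.01 in the mutants. Its difference was 0.74 (SE 0.13, adjusted p = 0.318), and control replicate 1 was the lowest array, as it was at every H19 probe and at Igf2. At p4 the controls read 6.07, 6.53, 6.46 and 6.61 and the mutants 7.39, 7.15, 6.96 and 7.02, a difference of 0.71 (SE 0.15, adjusted p = 0.429).

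The probes toward the 3′ end had the same arrays at their extremes, control replicate 1 lowest and mutant replicate 1 highest. Probe p3 read 7.40, 7.92, 7.77 and 7.98 in the controls and 8.78, 8.57, 8.20 and 8.53 in the mutants, a difference of 0.75 (SE 0.17, adjusted p = 0.508). Probe p2 read 7.84, 8.34, 8.13 and 8.37 against 9.03, 8.92, 8.57 and 8.80, a difference of 0.66 (SE 0.15, adjusted p = 0.532). Probe p1 had the narrowest gap, with controls at 8.54, 8.76, 8.66 and 8.74 and mutants at 9.50, 9.28, 8.86 and 8.93. Its difference was 0.47 (SE 0.15, adjusted p = 0.828), and mutant replicate 3 lay only just above control replicate 2.

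The estimates of the difference varied along the transcript. In order from 982 to 57 bases before the 3′ end of the interval it was 0.88, 0.74, 0.77, 0.71, 0.75, 0.66 and 0.47. Probe p1 gave the lowest of the 7 values in the full data, without mutant replicate 1 (0.35), after quantile normalisation (0.31) and after normexp background correction (0.29). Whether the probes differ from each other was not tested, and their 95% intervals overlap. The signal of the probes changes along the same axis, with a control mean of -3.22 at p7 and of 6.14 to 8.67 at the others. Whether p7 reads the same RNA as the other probes was not tested. Deviations of the arrays from their group means were shared among the 7 probes, with pairwise Pearson r of 0.62 to 0.98 over 8 arrays (median 0.86).

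**Figure D2:**
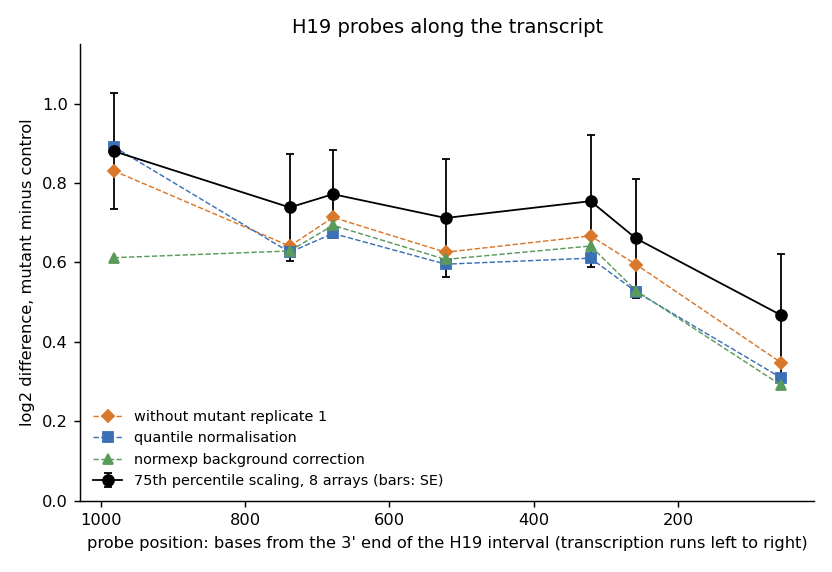
Difference in H19 level, mutant minus control on the log2 scale (vertical axis), for 7 probes by their distance in bases from the 3′ end of the H19 interval (horizontal axis, 982 to 57, transcription left to right). Black points are the 8 arrays with SE bars, and the other series are the same difference without mutant replicate 1, after quantile normalisation and after normexp correction; the probe nearest to the 3′ end is lowest in each.

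Igf2 encodes the insulin-like growth factor of fetal life and is expressed from the paternal copy, on the same strand as H19 and upstream of it. Its only probe, at chr7:149839661-149839720, read 2.06, 2.40, 2.07 and 2.47 in the controls and 3.33, 2.93, 2.81 and 2.74 in the mutants. Every mutant lay above every control, with means of 2.25 ± 0.22 and 2.95 ± 0.26 (SD, n = 4). The difference was 0.70 (SE 0.16, 95% interval 0.33 to 1.07, adjusted p = 0.532), or 1.63 fold.

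The spread of H19 and Igf2 within groups was ordinary for the array, and their differences ranked high. These genes were singled out by those differences, so the rank is no separate support. The within-group SD of their probes lay between the 22.5th and 62.1th percentile of all tested probes, and the signed difference between the 98.1th and 99.6th percentile. Mutant replicate 1, the array that stood apart, was the highest array at all 8 probes. Without it the H19 differences were 0.83, 0.64, 0.71, 0.63, 0.67, 0.59 and 0.35 from p7 to p1.

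The slide carried 2 rows of arrays with 2 controls and 2 mutants in each. In row 1, which held mutant replicates 1 and 2, the 8 differences were 0.74 to 1.05, and in row 2 they were 0.19 to 0.71. The Rfx6 fl/fl control lay within the range of the 3 Rfx6 fl/+ controls at 7 of the 8 probes and above it at the remaining one, p1.

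Within their groups, the deviations of H19 and Igf2 were correlated across arrays, a call that did not hold under most other settings. For H19 p1, the probe of highest mean, and the Igf2 probe, Pearson r of the deviations from the group means was 0.84 over 8 arrays (exact permutation within groups, two-sided, p = 0.0122, adjusted over 3 pairs 0.0365), and Spearman rho was 0.76 (exact permutation p = 0.0382, adjusted 0.115). Without mutant replicates 1 and 3, the arrays farthest from the median, r was 0.73 over the 6 that remained. With any 1 of the 8 arrays left out r was 0.63 to 0.89 and the exact permutation p after adjustment 0.0625 to 0.188, past the threshold in none of the 8 cases. The adjusted p was also above the threshold after normexp correction (0.188), after quantile normalisation (0.115) and in the deposited values (0.315), and under it after median centring (0.0156).

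Markers of other tissues were set beside these values. For the counts below, 2.81% of all tested probes were higher without overlap and 1.56% lower without overlap. The share called in either direction was 0.0423%. The summed linear level of 6 smooth muscle markers was 240 to 364 in the controls and 335 to 459 in the mutants, which overlap, with 0 of 6 separating the groups. Their median difference was 0.21, and the sum of 240 was that of control replicate 3. The summed level of 8 mesenchyme markers was 170 to 222 against 190 to 246, with 1 of 8 (Twist1, a mesenchymal transcription factor) separating the groups and a median difference of 0.08. The sum of 4 skeletal muscle markers was 2.54 to 3.80 against 3.47 to 4.86, which overlap, with 0 of 4 separating the groups and a median difference of 0.48 over the 3 tested. That median is the value of Tnnt3, whose probe lies at chr7:149698467-149698526, on the chromosome of H19 and Igf2. Epithelial, endothelial, neural, mesothelial, immune, liver and erythroid markers had overlapping sums. Their median differences were 0.01, 0.17, 0.04, 0.14, 0.03, -0.11 and -0.03 in that order. Pancreatic acinar markers did not overlap in their sum, 0.956 to 2.23 in the controls and 2.88 to 14.4 in the mutants. Of those 8 markers 4 were higher with groups not overlapping, 0 of 6 tested were called, and Cela2a and Prss2, both digestive proteases, were not well above background in any control. The array with the highest sum was mutant replicate 4 for the acinar list. It was mutant replicate 1 for the smooth muscle, mesenchyme, endothelium, skeletal muscle, mesothelium and immune lists. It was mutant replicate 2 for the liver list and for the epithelium list (992, with mutant replicate 1 at 991). For the neural and erythroid lists it was a control. The part of these tissues in the H19 and Igf2 values was not tested.

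The neighbourhood of the pair on chromosome 7 was read from Mrpl23 to Ins2, chr7:149726589-149864625, a window chosen after the values were seen. Of its 13 probes, all tested, 10 were higher with groups not overlapping and 0 were called. That share cannot be read against the 2.81% of all tested probes, since the window was placed around the 8 H19 and Igf2 probes. Beside the 8 probes of H19 and Igf2, these were Igf2os, an antisense RNA of the Igf2 gene, and 1 transcript probe at Mrpl23. Mrpl23 is a mitochondrial ribosomal protein gene. That transcript probe, at chr7:149726594-149726653, overlaps the Mrpl23 probe, at chr7:149726589-149726647, on the same strand, so they read nearly the same bases. Igf2os read 4.84, 4.41, 4.30 and 4.84 in the controls and 5.49, 5.60, 5.30 and 5.11 in the mutants. Every mutant was above every control, and the difference was 0.78 (SE 0.17, adjusted p = 0.461).

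The difference was smaller at the edges of the window. It was 0.28 (SE 0.13) at the Mrpl23 probe, where the groups overlapped, and 0.30 (SE 0.11) at the transcript probe that overlaps it in position. It was 0.37 (SE 0.14) at the other transcript probe beyond H19, and -0.10 (SE 0.17) at Ins2, an insulin gene just past Igf2. Outside the window, past Mrpl23, it was 0.48 (SE 0.19, limma adjusted p = 0.828) at the Tnnt3 probe, where the groups overlapped. How far the difference extends was not tested. The array reads 1 strand at a probe, and the Igf2os probe lies on the forward strand while Igf2 and H19 lie on the reverse strand.

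**Figure D3:**
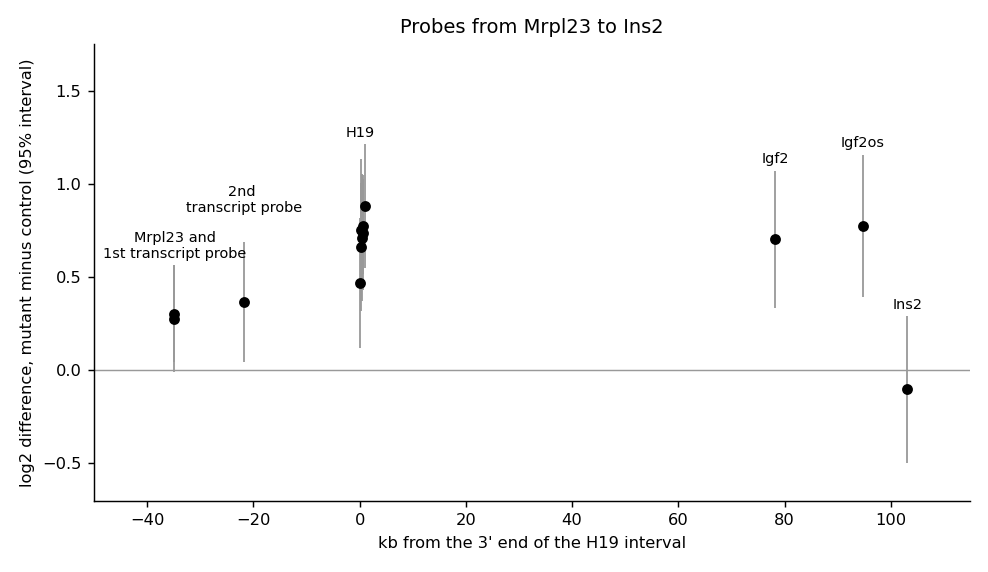
Difference, mutant minus control on the log2 scale with its 95% interval (vertical axis), for the 13 probes from Mrpl23 to Ins2 by distance in kb from the 3′ end of the H19 interval (horizontal axis). H19, Igf2 and Igf2os lie between 0.47 and 0.88, and Ins2 is at -0.10.

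Igf2r encodes the receptor that carries Igf2 to the lysosome for breakdown, and Grb10 an adaptor that dampens signalling from the insulin and Igf1 receptors. The Igf2r probe, at chr17:12875253-12875263, read 4.03, 3.94, 4.08 and 3.96 in the controls and 4.37, 4.04, 3.84 and 3.87 in the mutants. The mutants lay on both sides of the controls, and the difference was 0.03 (SE 0.13, 95% interval -0.27 to 0.32, adjusted p = 0.963). This probe was spotted 10 times per array, and the SD between its spots was 0.045 to 0.072, below the SD of 0.24 among the mutants.

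The Grb10 probe, at chr11:11833165-11833224, read 0.15, 0.74, 0.20 and 0.48 in the controls and 0.77, 0.43, 0.14 and 0.60 in the mutants. Each group held low and high arrays over the same range, with a difference of 0.09 (SE 0.18, adjusted p = 0.896). Cdkn1c, an inhibitor of cyclin-dependent kinases expressed from the maternal copy, read 7.02, 7.14, 6.99 and 6.99 in the controls and 7.64, 7.26, 7.07 and 6.98 in the mutants at chr7:150644753-150644812. Mutant replicate 1 was the highest array and mutant replicate 4 the lowest, and the difference was 0.20 (SE 0.15, adjusted p = 0.828).

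Dlk1 encodes a transmembrane protein related to Notch ligands and is expressed from the paternal copy. Probe p1, at chr12:110698502-110698561, read 1.34, 1.70, 1.25 and 1.93 in the controls and 2.11, 1.71, 1.78 and 1.55 in the mutants, a difference of 0.23 (SE 0.18, adjusted p = 0.828). Probe p2, at chr12:110698721-110698781, read 4.24, 4.49, 3.96 and 4.62 against 4.81, 4.51, 4.44 and 4.22, a difference of 0.17 (SE 0.18, adjusted p = 0.829). At both probes control replicate 3 was the lowest array, mutant replicate 1 the highest, and the other arrays were interleaved.

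Meg3 is a noncoding RNA expressed from the maternal copy downstream of Dlk1. Probe p1 read 2.23, 2.03, 1.82 and 2.09 in the controls and 0.96, 1.90, 2.27 and 2.14 in the mutants. Probe p2 read -0.72, -0.55, -1.27 and -0.64 against -1.92, -0.84, -0.62 and -0.68, and p3 read 4.59, 4.71, 4.49 and 4.74 against 3.37, 4.48, 4.85 and 4.75. At all 3 probes mutant replicate 1 was the lowest of the 8 arrays, and the other 3 mutants overlapped the controls.

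The Meg3 differences changed sign without that array. They were -0.23 (SE 0.27), -0.22 (SE 0.30) and -0.27 (SE 0.30) over all arrays, with adjusted p of 0.843, 0.855 and 0.835, and 0.060, 0.081 and 0.062 without mutant replicate 1. In slide row 1 they were -0.70, -0.74 and -0.72, and in row 2, which does not hold that array, 0.25, 0.30 and 0.18. The within-group SD of the 3 probes lay at the 84.8th to 88.0th percentile of all tested probes.

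The same array was low at many probes beyond Meg3, among noncoding RNAs and small RNA genes, but less so at Mirg, a host of microRNAs. Mutant replicate 1 minus the median of the other mutants was -1.18, -1.24 and -1.38 at Meg3 p1 to p3. At the Mirg probes it was -0.41 and -0.12, in order of genome position, and at some probes it was above zero. The window from Meg3 to Mirg was chosen after the values were seen. Mutant replicate 1 was the lowest mutant at 39 of the 55 tested probes there (70.9%) and at 28.1% of all tested probes. It was over 2 fold below the median of the other mutants at 20 of the 55 (36.4%), and at 9.62% of all tested probes. It was over 2 fold above that median at 0 of the 55, and at 343 of all 35472 tested probes. The shares in the window cannot be read against those of all tested probes. The window was placed from Meg3, where this array had been seen to be low, and it holds the Meg3 probes. Over the window 0 probes were called (0.0423% of all tested probes were), and the median difference was -0.09. The groups did not overlap, with the mutants higher, at 1 of the 55 (2.81% of all tested probes). They did not overlap, with the mutants lower, at 0 of the 55 (1.56% of all tested probes). The Mirg probe nearest to the 3′ end read 3.17, 3.07, 3.05 and 2.52 in the controls and 2.33, 2.44, 2.20 and 2.63 in the mutants, which overlapped at control replicate 4 (difference -0.55, SE 0.16, adjusted p = 0.828). The other Mirg probe had a difference of 0.06 (SE 0.19, adjusted p = 0.937). RNA quality of the arrays was not given in the labels, and its part in these values was not tested.

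**Figure D4:**
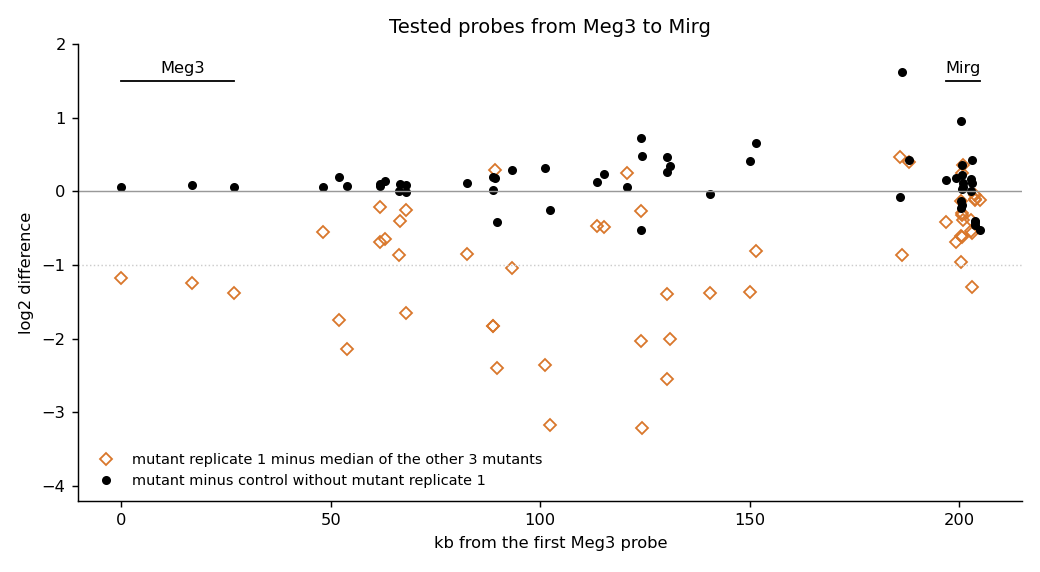
Tested probes from Meg3 to Mirg by distance in kb from the first Meg3 probe (horizontal axis). Open diamonds are mutant replicate 1 minus the median of the other 3 mutants and black points the difference mutant minus control without that array (vertical axis, log2); 20 of 55 diamonds lie below the dotted line at -1, and the Meg3 points lie at 0.060 to 0.081.

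The correlation of Dlk1 and Meg3 within groups did not pass the threshold, and its sign depended on mutant replicate 1. Pearson r was -0.44 over 8 arrays (exact permutation, adjusted p = 0.438) and Spearman rho -0.19 (exact permutation, adjusted p = 0.667), with r = -0.46 after the 2 farthest arrays, control replicate 3 and mutant replicate 1, were left out. Without mutant replicate 1 alone the sign turned, with r = 0.39.

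Peg3 encodes a zinc finger protein, and Peg10 a protein derived from a retrotransposon that is needed in the placenta. Peg3 p1, at chr7:6658774-6658833, read -1.04, -1.30, -1.59 and -1.03 in the controls and -2.01, -1.01, -0.97 and -1.40 in the mutants, with mutant replicate 1 lowest and a difference of -0.11 (SE 0.24, adjusted p = 0.914). Peg3 p2, at chr7:6661407-6661466, read -3.15, -2.99, -3.30 and -3.44 against -3.47, -3.15, -2.98 and -3.08, a difference of 0.05 (SE 0.14, adjusted p = 0.926). Both ranges overlapped.

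The Peg10 probes were dim. Probe p1, at chr6:4704589-4704648, read -5.63, -4.69, -5.28 and -5.00 in the controls and -5.16, -5.27, -4.12 and -5.82 in the mutants, and was not well above background in mutant replicate 4. Probe p2, at chr6:4709867-4709926, read -5.33, -5.25, -5.96 and -5.14 against -5.09, -5.72, -5.86 and -6.67, and was detected on 2 arrays of each group. The differences were 0.05 (SE 0.35, adjusted p = 0.973) and -0.41 (SE 0.32, adjusted p = 0.828), with 95% intervals of -0.74 to 0.85 and -1.15 to 0.32, the widest of the 23 probes. For Peg10 p1 and Sgce, the sarcoglycan gene beside it, Pearson r was 0.43 and Spearman rho 0.60 over 8 arrays (exact permutation, adjusted p = 0.438 and 0.297), with r = 0.38 without mutant replicates 3 and 4.

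Mest encodes a protein of the hydrolase fold expressed from the paternal copy, and its 3 probes had within-group SDs of 0.11 to 0.15. Probe p1, at chr6:30692160-30692219, read -0.11, 0.11, -0.03 and 0.01 in the controls and 0.27, 0.15, -0.02 and 0.19 in the mutants, a difference of 0.15 (SE 0.10, adjusted p = 0.828). Probe p2, at chr6:30697385-30697444, read 2.73, 2.87, 2.58 and 2.88 against 3.04, 2.83, 2.67 and 2.98, a difference of 0.12 (SE 0.12, adjusted p = 0.828). Control replicate 3 was lowest there, and mutant replicates 1 and 4 were highest.

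Mest p3, at chr6:30698279-30698338 and spotted 10 times per array, read 4.20, 4.20, 3.96 and 4.23 in the controls and 4.30, 4.09, 4.01 and 4.35 in the mutants. The SD between its spots was 0.038 to 0.059, and the difference was 0.04 (SE 0.11, 95% interval -0.22 to 0.30, adjusted p = 0.933). These within-group SDs of the 3 Mest probes lay at the 10.7th to 29.4th percentile of all tested probes. Over the 15 probes of the 8 genes other than H19 and Igf2, the differences ran from -0.41 to 0.23, with 95% intervals reaching from -1.15 to 0.85.

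**Figure D5:**
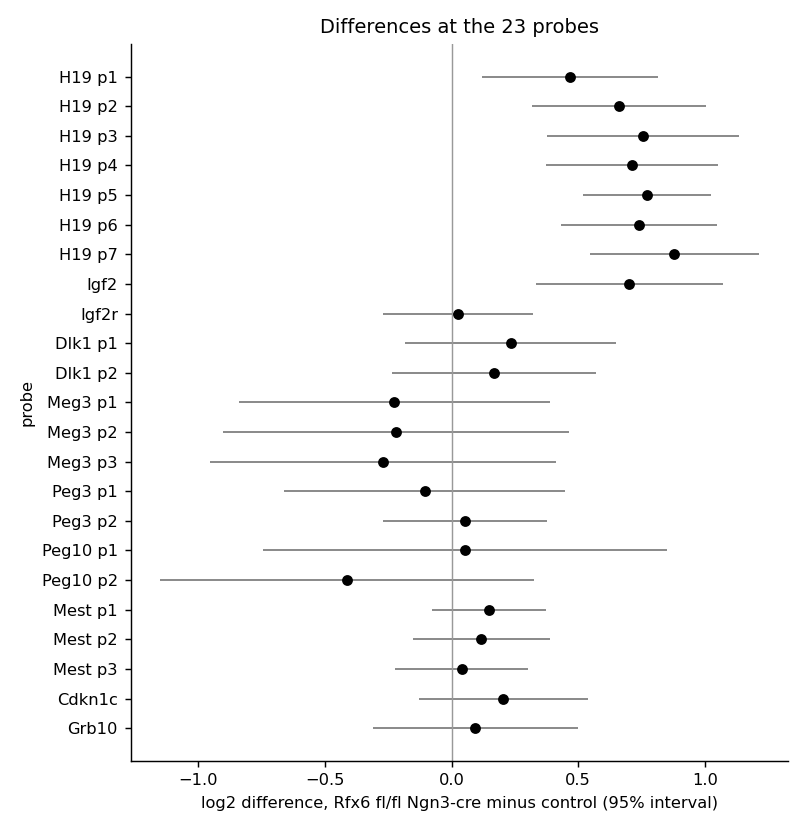
Difference, Rfx6 fl/fl Ngn3-cre minus control on the log2 scale, with its 95% interval (horizontal axis) for each of the 23 probes (vertical axis). The intervals of the 8 H19 and Igf2 probes lie above 0, from 0.12 to 1.21, and those of the other 15 probes include 0.

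Other imprinted genes, mostly neighbours of the 10 in their clusters, gave a background for the family. Of 56 listed genes 54 were on the array, with 76 tested probes of 47 genes. Of these probes 46 were above zero and 30 below, 0 were called, 4 had an unadjusted limma p under 0.05, and the median difference was 0.03. The groups did not overlap, with the mutants higher, at 2 probes, both of Cobl, an actin nucleator gene beside Grb10, with differences of 0.44 (SE 0.11, adjusted p = 0.649) and 0.39 (SE 0.17, adjusted p = 0.828). They did not overlap, with the mutants lower, at Pon3, a paraoxonase gene near Peg10 (-0.34, SE 0.13), and at 1 of the probes of Ube3a, a ubiquitin ligase gene (-0.59, SE 0.40), where mutant replicate 1 read -2.15 and all other arrays between -0.30 and -0.03. The 4 of 76 without overlap compare with 4.38% of all tested probes in either direction. Of all 35472 tested probes 19663 were above zero and 15809 below. Among them 0.0423% were called and 5.05% had an unadjusted limma p under 0.05.

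Genes through which Igf2 acts, or which regulate imprinted loci, were listed as well: receptors, binding proteins, intracellular signalling, mRNA-binding proteins and methylation factors. Of 67 tested probes of 42 genes, 42 were above zero and 25 below, 0 were called, 4 had an unadjusted limma p under 0.05, and the median difference was 0.07. The groups did not overlap at 2 probes, with the mutants higher: 1 of Insr, the insulin receptor (0.23, SE 0.09), and 1 of Dnmt3b, a DNA methyltransferase (0.24, SE 0.11), both with adjusted p = 0.828. The counts without overlap and with a small p are near the shares of all tested probes, 2.81% for higher without overlap and 5.05% for an unadjusted p under 0.05. Of all 35472 tested probes 0.0423% were called, 19663 were above zero and 15809 below. The other tested probes of these genes overlapped between groups.

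For each gene the genes whose deviations from the group means were most like it were found among 22864 genes detected on all arrays, from its probe of highest mean, over 8 arrays and without a test. H19 was nearest to Ch25h, a cholesterol hydroxylase (Pearson r = 0.99), and to noncoding intervals on chromosomes 15 and 14 (0.98 and 0.98), Igf2 to Cbx6, Wdhd1 and Tacc1 (0.98 each), and Dlk1 to Lgals1 (0.98), Srcin1 (0.98) and Styxl1 (0.97). Neither H19 nor Igf2 was among the 3 genes nearest to the other. Igf2r was nearest to Nectin1, Tspan7 and Dazap2 (1.00, 1.00 and 0.99), Mest to Mex3b, Ppm1d and Map4k4 (0.99, 0.98 and 0.98), and Cdkn1c to Tspan32, Krba1 and Cldnd1 (1.00, 0.99 and 0.99). Meg3 was nearest to an unnamed probe, Mtrex and 4930422N03Rik (1.00, 0.99 and 0.99), Peg3 to 3 unnamed probes (0.99 each), Peg10 to Panct2, Chrnb1 and Klk1b24 (0.95, 0.93 and 0.91), and Grb10 to Alk, Adamts7 and Galnt17 (0.99, 0.98 and 0.98). These values rank many candidates over few arrays and are a description only.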

How the data were processed

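Total RNA of 8 small intestines was extracted with TRI-reagent, and 100 ng was amplified and labelled with cyanine 3, per the labels' protocols. Feature Extraction 10.10.1.1 was used on array design 028005 with build mm9, per the file headers, and the authors deposited linear intensity values, background-corrected within the array, and flags for spots well above background. A deposited table of intensity values, with no stated processing, held equal quartiles in its columns and was read as quantile-normalised. All arrays lay on 1 slide and in 1 scan. Their number limits the precision.

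Values are the log2 intensity minus the log2 of the array's 75th percentile over non-control spots. Outlier spots (117 to 157 per array) were left out, and no spot was saturated. Spots of a probe were averaged. A probe was above background on an array where at least 50% of its spots were, and was tested where this held on at least 4 of 8 arrays without regard to group, which kept 35472 of 55681 probes. Groups were compared per probe with limma 3.58.1 in R 4.3.3 (lmFit, eBayes, two-sided), after tests on simulated data. P-values measure only the spread between these samples. Names came from RefSeq accessions for 26582 probes, older symbols for 492 and the array files for 28607. Coordinates are those of the array files. No mm9 exon or UTR annotation was used here. The sequence and position of Meg3 p1 are not reported here. The descriptions of mutant replicates 2 to 4 name other Rfx genes than their titles do, and the titles were used.

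Named genes were all members, list members whose groups did not overlap (up to 5 per direction and list), the 3 genes most like each member and the genes of 3 pairs. Igf2os, Mrpl23, Mirg and the marker genes named were chosen after their values were seen. The members and lists were chosen with earlier results of these data known. Correlations used exact permutations within groups (576). The alternatives were other background corrections, scalings, filters, blocks, array weights and leaving out each replicate.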

Additional observations from a re-analysis of the deposited data

Results flagged for a closer look

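Groups of 4 arrays were examined for a single array far from the other 3 at each of the 23 probes, which made 46 groups. By chance about 1 in 20 groups, here 2.3, would be marked, and 2 were. At Meg3 p2 mutant replicate 1 read -1.92, and the other mutants read between -0.84 and -0.62. At Mest p3 control replicate 3 read 3.96, and the other controls read between 4.20 and 4.23.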

How the results depend on the processing

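The H19 and Igf2 probes gave 138 differences over 18 alternatives, of which 0 reversed, with values from 0.29 to 0.98, and at 8 of 8 probes the groups did not overlap under normexp, quantile normalisation, median centring and the deposited values, a count added after seeing the data. Only H19 p5 was called, under normexp background correction (adjusted p = 0.0378, 1 of the 23 probes called) and under array weights (adjusted p = 0.0357, 1 of 23), and adjusted p over all alternatives ran from 0.0357 to 0.959. Over all tested probes 15 were called, and 23 under normexp, 39 under array weights, 7 with the replicate block and 8 to 19 with 1 array left out.

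With the replicate number as a block, 0 of the 23 probes were called and H19 and Igf2 had a limma adjusted p of 0.871. Deviations of same-numbered arrays had correlations of -0.087, 0.089, 0.003 and 0.098. The labels do not say whether same-numbered samples are paired, and these correlations cannot decide it. The H19 and Igf2 correlation was 0.75 under normexp (adjusted p = 0.188), 0.75 under quantile normalisation (0.115), 0.81 in the deposited values (0.315) and 0.63 to 0.89 with 1 array left out (0.0625 to 0.188), all short of the threshold by exact permutation. That of Dlk1 and Meg3 ran from -0.70 to 0.39 with 1 array left out.

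The other 15 probes gave 257 differences, of which 19 reversed and 0 were called. The Igf2r difference was -0.0084 under normexp, -0.0049 under quantile normalisation, -0.014 in the deposited values and -0.035 under array weights, and -0.087 to 0.090 with 1 array left out. Array weights gave 0.11 at Peg3 p1, -0.042 at Mest p3 and -0.063 at Grb10. Without mutant replicate 1 they were 0.060, 0.081 and 0.062 at Meg3 p1 to p3, 0.12 at Peg3 p1 and -0.00031 at Grb10. The ranges with 1 array left out were -0.38 to 0.060 and -0.38 to 0.081 at Meg3 p1 and p2, -0.43 to 0.062 at Meg3 p3, -0.23 to 0.12 at Peg3 p1, -0.019 to 0.15 at Peg3 p2, -0.27 to 0.30 at Peg10 p1, -0.023 to 0.099 at Mest p3 and -0.00031 to 0.21 at Grb10. They turned below 0 without control 4 (-0.019) or mutant 3 (-0.0093) at Peg3 p2, without control 1 (-0.11) or mutant 3 (-0.27) at Peg10 p1, and without control 3 (-0.023) or mutant 4 (-0.015) at Mest p3. The cause was not tested. Signal over background limits Peg10.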
